A study of Mus musculus with 8 samples.

Results

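The heat-shock proteins and DNAJ cochaperones were followed in RNA from sorted luminal cells of the mouse mammary gland. Members were taken by gene symbol, as every gene whose symbol starts with Hsp90, Hspa, Hspb, Hspd, Hspe, Hsph, Dnaja, Dnajb or Dnajc, together with Hsf1, Hsf2 and Bag3. This rule was met by 77 of the 24594 genes listed, and the 72 with a count in any library were kept. No expression value entered the rule. Dnajb3, Dnajb8, Hspb3, Hspb7 and Hspb9, which are known from testis or muscle, had no count. The kept members were divided by the place and mode of action of their proteins into 10 inducible cytosolic genes, 39 other cytosolic or nuclear genes, 13 genes of the endoplasmic reticulum (ER), 8 mitochondrial genes and the 2 regulators Hsf1 and Hsf2. These classes were set with earlier results of these data known.

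The 8 libraries came from wild-type C57BL/6J mice that had received no treatment, 4 from the c-Kit high fraction, the luminal progenitors (LP), and 4 from the c-Kit low fraction, the mature luminal cells. The labels give no age for these animals, and the methods give a single adult age range for the mice of the study, without naming these libraries. Glands were digested for hours with collagenase and hyaluronidase and then briefly with trypsin and dispase, and the cells were stained and sorted before RNA was extracted and amplified. The labels list EpCAM, CD49f, c-Kit and CD14 among the sorting markers, and the study describes the split of these RNA samples by c-Kit. All 8 libraries therefore passed through the same steps of dissociation and sorting, and no library of undissociated tissue was analysed here. The labels number the libraries 1 to 4 in each fraction, and the library names also join each LP library to the mature library of the same number by a shared identifier. Neither is said to stand for a mouse, a day or a batch, so the fractions were compared without pairing and the p-values measure the spread between these libraries.

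Heat-shock proteins are chaperones. HSP70 proteins hold unfolded chains in a cycle of ATP hydrolysis, DNAJ proteins bring them substrates and start that hydrolysis, nucleotide exchange factors release the substrate, and HSP90 completes the folding of kinases and steroid hormone receptors, among them the oestrogen and progesterone receptors for which mature luminal cells are known. Small heat-shock proteins bind unfolding proteins without using ATP. The cytosol, the ER and the mitochondria each have their own HSP70 with its DNAJ partners. Unfolded protein in the cytosol releases the transcription factor HSF1, which binds heat-shock elements, arrays of the inverted unit GAA and TTC, and switches on the inducible cytosolic genes. Unfolded protein in the ER acts through other factors, which bind the ER stress element in the promoters of ER chaperone genes.

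The libraries held between 5510863 and 7089597 counts on genes in LP and between 4410049 and 7791593 in mature cells. Levels are given as CPM, the count of a gene per 1000000 counts of a library whose size was scaled by TMM. The labels matched the markers of the fractions. Of the 4 LP markers Kit, Elf5 and Cd14 were higher in LP, and all 5 mature luminal markers, Esr1 and Pgr among them, were higher in mature cells. Mature replicate 3 stood apart in the genes described here. The summed LP markers were also highest there among the mature libraries, at 966 CPM against 244, 355 and 715, as were the summed basal markers, at 51.1 CPM against 8.86, 10.2 and 27.4. Transcripts of other cell types were present at low levels. The basal genes Krt14 and Acta2 reached 18.6 and 16.6 CPM in mature replicate 3, and Krt5 at most 2.17 CPM in any library. The stromal gene Dcn had 132 and 154 CPM in mature replicates 1 and 2 and at most 24.7 CPM in the others. Summed immune markers lay between 44.7 and 63.0 CPM in LP and between 17.0 and 47.8 CPM in mature libraries, most of it Cd68 in the LP libraries, and the endothelial gene Pecam1 reached 8.19 CPM. Cd3e of T cells, Kdr of endothelium and Cidec and Lep of adipocytes had no count in any library. The part of these transcripts in the results was not tested.

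Between LP and mature libraries, 26 of the 65 members that passed the filter on low counts had an adjusted p-value under 0.05 in the quasi-likelihood test of edgeR, and this threshold is meant wherever a gene is said to be called. This is 40.0% of the members tested, against 24.7% of all 12816 genes tested. The members differed in direction, since 22 of them (33.8%, against 13.8% of all tested genes) were higher in mature cells and 4 (6.15%, against 10.9%) were higher in LP. More than 2-fold higher in mature cells were 18 members (27.7%, against 8.58%), and 2 members (3.08%, against 7.48%) were more than 2-fold higher in LP. In 23 members every mature library was above every LP library (35.4%, against 15.5% of all tested genes), and in 4 members every LP library was above every mature one (6.15%, against 14%). In RNA from a sorted population, more cells with a transcript and more of the transcript per cell cannot be told apart. The number of members called was 28 without mature replicate 3, where 26.2% of all genes were called, Hspb6 and Dnajc15 were lost and Dnajc3, Hsp90b1, Hspa14 and Hspb2 were gained, and 28 with the test of DESeq2, where 29.6% were. It was lowest, at 15, without both libraries of replicate 2, where 12.5% of all genes were called, and 17 without both of replicate 1, where 14% were. The 4 members higher in LP became 0 without replicate 2, and 1 without replicate 1, replicate 4, LP replicate 2 or LP replicate 4, and 2 without LP replicate 1 or mature replicate 1.

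**Figure D1:**
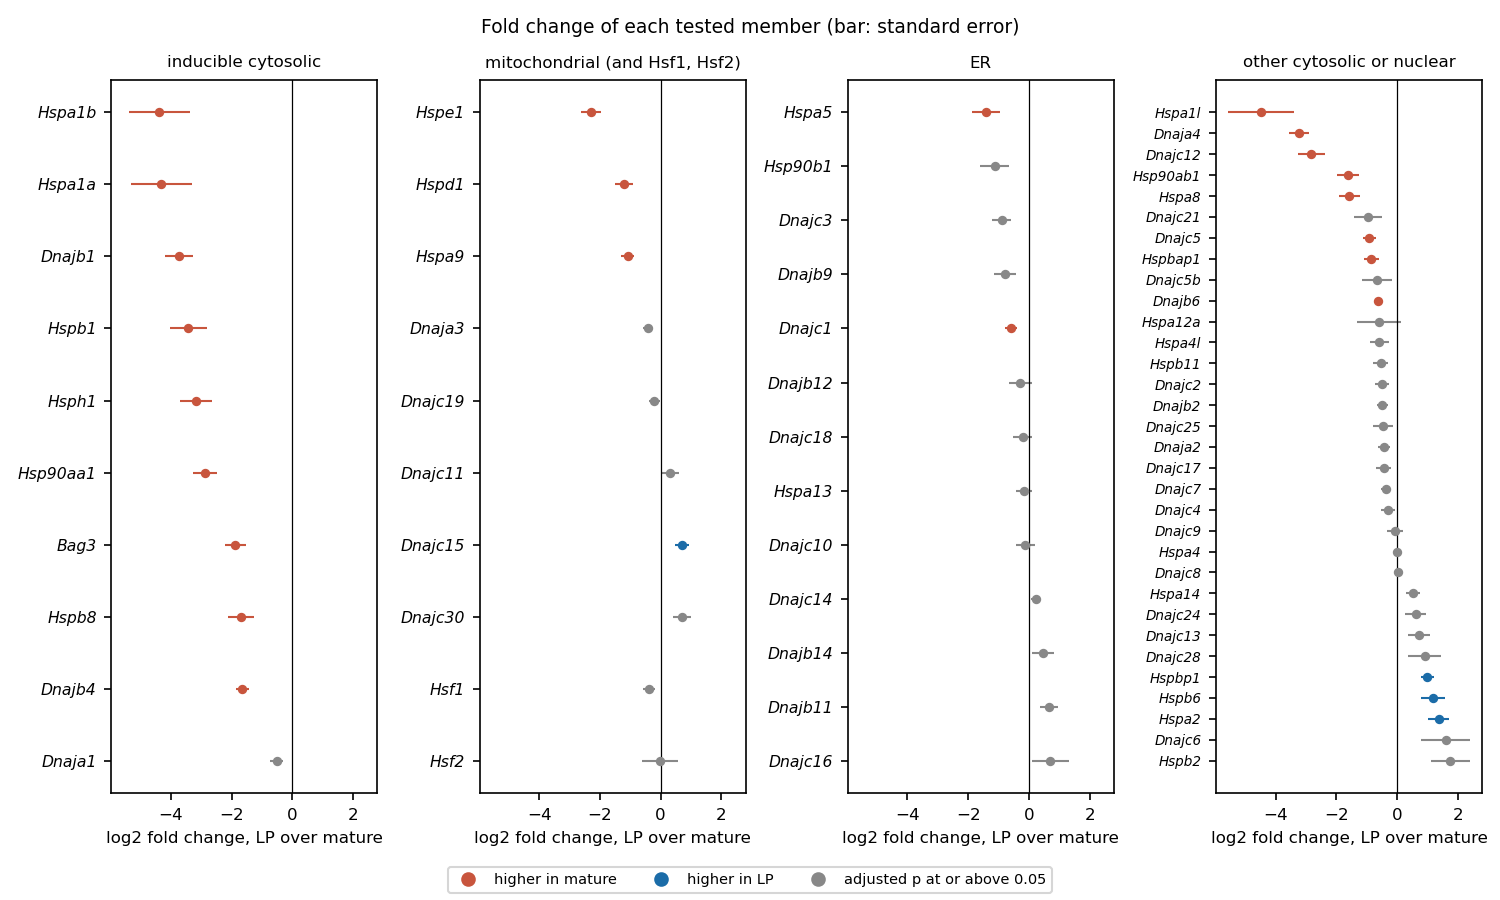
Log2 fold change of LP over mature libraries (horizontal axis) for the 65 tested members, in 4 panels by compartment, with Hsf1 and Hsf2 at the foot of the mitochondrial panel. Points are estimates from edgeR and bars are standard errors, and values left of 0 are higher in mature cells. The inducible cytosolic genes run from -4.38 to -0.52, and the ER genes from -1.41 to 0.71 with a median of -0.21.

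The difference was largest in the inducible cytosolic genes, the ones that a heat shock switches on. Of the 10 genes 9 were called (90.0%, against 24.7% of all tested genes). All 9 were more than 2-fold higher in mature cells (90.0%, against 8.58%). In 8 every mature library was above every LP library (80.0%, against 15.5%). The 10 genes had a median log2 fold change of -3.03, against -2.8e-05 over all tested genes. A negative value means lower in LP. Without mature replicate 3 the median was -2.35, and the same 9 genes were called.

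Hspa1a and Hspa1b encode the heat-inducible cytosolic HSP70 and lie side by side on chromosome 17 (Entrez Gene 193740, chr17:34969359-34972156, and 15511, chr17:34956429-34959238, in GRCm38, the assembly also named mm10). Hspa1a had 80.7, 61.7, 288 and 97.4 CPM in LP replicates 1 to 4 and 584, 346, 8253 and 1309 CPM in mature replicates 1 to 4. Its lowest mature library was above its highest LP library, and within each fraction replicate 3 was the highest. The mean was 19.9-fold higher in mature cells (log2 fold change -4.31, standard error 1.01, edgeR adjusted p = 0.0108). Without mature replicate 3 the log2 fold change was -2.48 (edgeR adjusted p = 0.0119), so that library alone carried much of the fold. Hspa1b had 35.0, 24.2, 129 and 44.95 CPM in LP and 283, 167, 3779 and 607 CPM in mature replicates 1 to 4, with a log2 fold change of -4.38 (edgeR adjusted p = 0.0100), or -2.58 without mature replicate 3. The 2 genes are near copies, and 66.1% of the 51-base stretches of the Hspa1a exons recur elsewhere in the annotated transcripts, most of them in Hspa1b. The treatment of reads that match several genes is not given in the sources used here, so the split of reads between Hspa1a and Hspa1b is uncertain, and Hspa1b held between 39.2% and 48.5% of the Hspa1a count in every library.

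Dnajb1, the HSP40 that serves inducible HSP70, had 89.2, 91.9, 199 and 100.4 CPM in LP and 1212, 994, 3244 and 972 CPM in mature replicates 1 to 4. It was 13.4-fold higher in mature cells (log2 fold change -3.74, standard error 0.467, edgeR adjusted p = 0.000587), with a wide gap between the fractions in every library. Without mature replicate 3 its log2 fold change was -3.11, so this gene depended far less on that library than Hspa1a did. Hsph1, the HSP110 that exchanges the nucleotide of HSP70, had 51.7, 50.8, 125 and 74.9 CPM in LP and 450.4, 361, 1520 and 389 CPM in mature replicates 1 to 4. Its log2 fold change was -3.17 (edgeR adjusted p = 0.00202), or -2.37 without mature replicate 3.

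Hspb1, the small heat-shock protein HSP25, was the most abundant inducible gene. It had 308, 280.2, 1004 and 585 CPM in LP and 2479, 2796, 12490 and 5657 CPM in mature replicates 1 to 4, and its fractions did not overlap. The log2 fold change was -3.43 (standard error 0.606, edgeR adjusted p = 0.00283), or -2.72 without mature replicate 3. Replicates 3 and 4 were the highest in both fractions. Of its 51-base stretches 49.9% recur elsewhere, nearly all in the pseudogene Hsp25-ps1.

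Hsp90aa1, the inducible cytosolic HSP90, had 264, 258, 390.3 and 213 CPM in LP and 1255, 1414, 4031 and 1638 CPM in mature replicates 1 to 4. It was 7.41-fold higher in mature cells (log2 fold change -2.89, edgeR adjusted p = 0.000821), and without mature replicate 3 the log2 fold change was -2.32. Pseudogenes share 47.3% of its 51-base stretches. Bag3, the cochaperone that hands HSP70 clients to selective autophagy, had 53.0, 39.0, 82.2 and 76.3 CPM in LP and 195, 126, 388 and 216 CPM in mature replicates 1 to 4. Its log2 fold change was -1.89 (edgeR adjusted p = 0.00345), and none of its 51-base stretches recur elsewhere.

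The remaining inducible genes were low and differed less. Dnajb4, an inducible DNAJ protein of HSP70, had 42.3, 26.5, 38.0 and 42.6 CPM in LP and 135, 106, 88.8 and 139 CPM in mature replicates 1 to 4. It was the one inducible gene whose lowest mature library was replicate 3, and its difference (log2 fold change -1.65, standard error 0.214, edgeR adjusted p = 0.000678) was among the most precise. Hspb8, which works with BAG3, had 21.1, 9.63, 23.9 and 29.4 CPM in LP and 62.4, 77.2, 105 and 26.1 CPM in mature replicates 1 to 4. Mature replicate 4 fell inside the LP range, and the call (log2 fold change -1.69, edgeR adjusted p = 0.0157) was lost without both libraries of replicate 1, 2 or 3, at adjusted p = 0.0681, 0.0841 and 0.0615 from edgeR. Dnaja1, a DNAJ protein that is abundant in unstressed cells too, had 88.7, 75.9, 72.9 and 74.8 CPM in LP and 83.5, 99.0, 164 and 102 CPM in mature replicates 1 to 4. Its fractions overlapped and it was not called (log2 fold change -0.52, edgeR adjusted p = 0.0952).

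**Figure D2:**
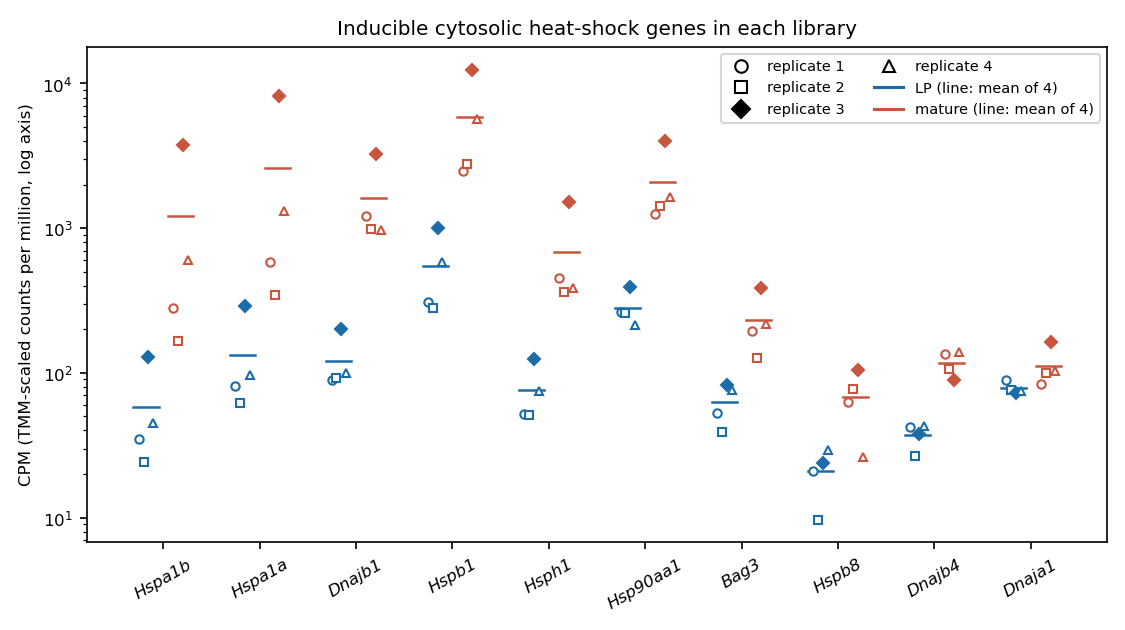
CPM (vertical axis, log scale) of the 10 inducible cytosolic genes in each of the 8 libraries, with LP in blue and mature cells in red, marker shape by replicate number, replicate 3 filled and a line at the mean of 4. The mature points lie above the LP points in 8 genes, and replicate 3 is the highest mature library in 9 genes.

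The inducible genes also moved together between libraries of the same fraction. The highest mature library was replicate 3 in 9 of the 10 genes, as it was in 27.9% of all tested genes, and the highest LP library was replicate 3 in 7 of the 10 genes, against 28.0% of all tested genes. Mature replicate 3 exceeded the mean of the other mature libraries by a median of 2.94-fold in the inducible genes and 0.984-fold in all tested genes. For LP replicate 3 these ratios were 1.85 and 0.981. The size of the excess varied among the genes, from 11.1-fold for Hspa1a and 10.7-fold for Hspa1b through 3.80-fold for Hsph1 and 2.17-fold for Bag3 to 1.90-fold for Hspb8 and 1.73-fold for Dnaja1 in the mature fraction, and Dnajb4 was lower there, at 0.700 of the mean of the others. These ratios are descriptions of 2 libraries, and what replicate 3 stands for is not given in the labels.

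The promoters of the members were searched for the sequence that HSF1 reads. Promoters, from 250 bases before to 50 after each annotated start, came from RefSeq for GRCm38.p6, and 57 of the 72 members had an entry. The letters GAANNTTC or TTCNNGAA, an inverted pair of units, were searched on both strands. They were found in 8 of the 9 inducible genes with an entry, in 5 of 31 other cytosolic or nuclear genes, in 1 of 11 ER genes and in 2 of 5 mitochondrial genes, against 15.9% of all 18386 genes with a promoter. The 5 other cytosolic or nuclear genes were Dnaja4, Dnajb6, Hspb6, Dnajc5g and Dnajc27, and the ER gene was Dnajc10. Of the inducible genes Dnajb1 had no match in this window, and Hsp90aa1 had no entry. The sites of the most changed genes with a match are printed with 5 bases on each side and the matched letters in capitals. Those of Hspa1a (chr17:34972248-34972265, minus strand, at -104 to -97 from the start) and Hspb1 (chr5:135887797-135887814 and chr5:135887817-135887834, plus strand) lie before the start, and that of Hspa1b (chr17:34959330-34959347, minus strand) has the same letters and the same distance as that of Hspa1a.
Hspa1a: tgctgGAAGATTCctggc
Hspa1b: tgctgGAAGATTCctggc
Hspb1, distal: caagaGAAGTTTCcagat
Hspb1, proximal: gggcaGAACCTTCctggc
A match describes these letters only, and binding of HSF1 was not measured.

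The constitutive cytosolic chaperones were higher in mature cells too, by less. Hspa8, the HSC70 that every cell makes, had 1025, 1092, 1150 and 1272 CPM in LP and 2142, 2173, 6283 and 2886 CPM in mature replicates 1 to 4. Hsp90ab1, the constitutive HSP90, had 1844, 1760, 2358 and 1828 CPM in LP and 3676, 3926, 11580 and 4548 CPM in mature replicates 1 to 4. In both genes the fractions did not overlap and mature replicate 3 was far above the rest. The log2 fold change was -1.57 for Hspa8 (standard error 0.339, edgeR adjusted p = 0.00751) and -1.61 for Hsp90ab1 (standard error 0.366, edgeR adjusted p = 0.00971). Without mature replicate 3 these became -1.05 and -1.03, with edgeR adjusted p-values of 0.00256 and 0.00304. Sequence shared with other annotated transcripts made up 39.1% of the 51-base stretches of Hspa8 and 3.25% of those of Hsp90ab1.

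Among the 32 tested other cytosolic or nuclear members, 8 were higher in mature cells (25.0%, against 13.8% of all tested genes) and 3 in LP (9.38%, against 10.9%). Hspa1l, a testis-enriched HSP70 next to Hspa1a, had the lowest value of all members (log2 fold change -4.48, standard error 1.08, edgeR adjusted p = 0.0129). It had 3.34, 1.29, 11.1 and 2.50 CPM in LP and 20.1, 11.0, 317 and 52.9 CPM in mature replicates 1 to 4, so that mature replicate 2 was just below LP replicate 3. Its count was 2.10% to 4.14% of that of Hspa1a in every library, and 71.4% of its 51-base stretches recur elsewhere, mostly in the antisense gene Gm10501. Whether the counting used strand is not given in the sources used here, so reads of these neighbours cannot be told apart. The call was lost without both libraries of replicate 4 (edgeR adjusted p = 0.0558), and without mature replicate 3 the log2 fold change was -2.61.

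Dnaja4 and Dnajc12 differed by folds within the range of the inducible genes and had no excess in mature replicate 3. Dnaja4, a DNAJ protein of cytosolic HSP70, had 11.9, 19.0, 35.2 and 34.7 CPM in LP and 191, 251, 238 and 273 CPM in mature replicates 1 to 4. It was 9.45-fold higher in mature cells with a small spread (log2 fold change -3.24, standard error 0.328, edgeR adjusted p = 0.000269), and the mature replicate 3 value was 0.999 of the mean of the others. The exons of Wdr61 on the opposite strand cover 42.7% of its 51-base stretches. Its promoter held the inverted pair GAANNTTC at 2 places. Dnajc12, a cochaperone of the aromatic amino acid hydroxylases, had 19.8, 25.9, 11.95 and 6.94 CPM in LP and 152, 106, 52.7 and 145 CPM in mature replicates 1 to 4. Here mature replicate 3 was the lowest of the mature libraries, and the log2 fold change was -2.82 (edgeR adjusted p = 0.00143).

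Dnajc5, Hspbap1 and Dnajb6 were called with smaller differences, all with every mature library above every LP library. Dnajc5, the cysteine string protein of secretory vesicles, ranged from 66.1 to 96.8 CPM in LP and from 110.1 to 198 CPM in mature libraries (log2 fold change -0.91, edgeR adjusted p = 0.0132). Hspbap1, named for its binding to HSPB1, ranged from 12.8 to 17.9 CPM in LP and from 24.7 to 39.9 CPM in mature libraries (log2 fold change -0.85, edgeR adjusted p = 0.0325). Dnajb6, which holds back protein aggregation, ranged from 218 to 264 CPM in LP and from 353 to 405 CPM in mature libraries (log2 fold change -0.62, standard error 0.143, edgeR adjusted p = 0.00993). Its promoter held 3 alternating units, found in 0.658% of all genes, at chr5:29735847-29735869 on the plus strand.
Dnajb6: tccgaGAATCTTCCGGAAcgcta
Without both libraries of replicate 1 or of replicate 2, Dnajc5 and Dnajb6 were not called, with edgeR adjusted p-values between 0.0731 and 0.101, and Hspbap1 lost its call in 9 of the 12 fits that left libraries out.

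The members higher in LP were few. Hspa2, an HSP70 known from spermatogenesis, had 58.8, 88.4, 34.4 and 91.0 CPM in LP and 42.2, 19.4, 22.5 and 20.9 CPM in mature replicates 1 to 4, and mature replicate 1 lay above LP replicate 3. Its log2 fold change was 1.37 (standard error 0.349, edgeR adjusted p = 0.0163). Hspbp1, a nucleotide exchange factor of HSP70, had 57.5, 65.4, 37.4 and 60.5 CPM in LP and 27.3, 24.7, 32.1 and 26.7 CPM in mature replicates 1 to 4, without overlap (log2 fold change 0.99, edgeR adjusted p = 0.00743). Hspa2 lost its call in 4 and Hspbp1 in 2 of the 12 fits that left libraries out. Hspb6, the small heat-shock protein HSP20, had 11.0, 10.5, 24.4 and 10.8 CPM in LP and 5.20, 7.09, 6.64 and 6.03 CPM in mature replicates 1 to 4. Its log2 fold change of 1.18 (edgeR adjusted p = 0.0483) was not called in any of the 12 fits that left libraries out, and without LP replicate 3 it was 0.80. The promoter of Hspb6 also held the inverted pair GAANNTTC, at -120 to -113 from the start. Hspb2, a muscle small heat-shock protein, was low in both fractions, with 2.73 to 6.14 CPM in LP and 0.56 to 2.31 CPM in mature libraries, and was not called (log2 fold change 1.75, edgeR adjusted p = 0.0690), but it was called without mature replicate 3 (edgeR adjusted p = 0.0395). It overlaps Cryab on the opposite strand, which shares 24.3% of its 51-base stretches.

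Among the 8 mitochondrial members, 3 were higher in mature cells (37.5%, against 13.8% of all tested genes) and 1 in LP (12.5%, against 10.9%). The matrix chaperones Hspe1, Hspd1 and Hspa9 were called higher in mature cells, and no mitochondrial DNAJ protein was. Hspe1 (HSP10), the lid of the matrix chaperonin, had 41.7, 42.1, 61.6 and 42.6 CPM in LP and 153, 155, 426 and 184 CPM in mature replicates 1 to 4. Hspd1 (HSP60), the chaperonin itself, had 234, 208, 347 and 221 CPM in LP and 436, 431, 989 and 488 CPM in mature replicates 1 to 4. For both genes replicate 3 was the highest library of each fraction, as in the inducible cytosolic genes, and the fractions did not overlap. The log2 fold change was -2.29 for Hspe1 (standard error 0.34, edgeR adjusted p = 0.00122) and -1.22 for Hspd1 (standard error 0.296, edgeR adjusted p = 0.0132), and without mature replicate 3 it was -1.77 and -0.81, both still called. Without both libraries of replicate 2 or 4 the edgeR adjusted p of Hspd1 was 0.0553 and 0.0563. Pseudogenes and other transcripts share 41.6% of the 51-base stretches of Hspd1 and 22.4% of those of Hspe1.

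Hspd1 and Hspe1 are transcribed in opposite directions from a shared promoter on chromosome 1, and this promoter held 4 alternating heat-shock units without a gap, an array that 6 of the 18386 genes had. The same site (chr1:55088054-55088081) lies at -89 to -72 from the start of Hspe1 on the plus strand and at -144 to -127 from the start of Hspd1 on the minus strand. Read from either side it gives the following letters, with the units and the bases between them in capitals.
Hspe1: gtccgTTCTAGAACCTTCCGGAAggccc
Hspd1: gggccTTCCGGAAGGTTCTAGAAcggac
As a single site for both genes, it counts as 1 site behind the 2 mitochondrial matches.

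Hspa9 (mortalin), the HSP70 of the matrix, had 231, 205, 231 and 260.0 CPM in LP and 447, 697, 467 and 363 CPM in mature replicates 1 to 4. Every mature library was above every LP library, but the highest was mature replicate 2, and the ratio of mature replicate 3 to the other mature libraries was 0.93. Its log2 fold change was -1.09 (standard error 0.208, edgeR adjusted p = 0.00407), and -1.08 without mature replicate 3. Dnajc15, a DNAJ protein of the import motor, was higher in LP, from 25.7 to 34.1 CPM against 14.9 to 21.6 CPM in mature libraries (log2 fold change 0.69, edgeR adjusted p = 0.0470). This call rested on all libraries, since 10 of the 12 fits that left libraries out lost it. Dnaja3, Dnajc11, Dnajc19 and Dnajc30 were not called, with log2 fold changes from -0.41 to 0.70.

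Of the 13 ER chaperones 2 were called, or 15.4% against 24.7% of all tested genes. Both were higher in mature cells, a share near the 13.8% of all tested genes that were, and the median log2 fold change was -0.21. Hspa5 (BiP), the HSP70 of the ER lumen, was the most abundant member in LP. It had 4890, 4989, 3201 and 3826 CPM in LP and 15040, 19960, 6345 and 3625 CPM in mature replicates 1 to 4. Mature replicates 1 and 2 were far above all LP libraries, whereas mature replicate 4 was inside the LP range. The log2 fold change was -1.41 (standard error 0.464, edgeR adjusted p = 0.0479). This call was lost in 9 of the 12 fits that left libraries out, with edgeR adjusted p-values up to 0.196. These were the fits without LP replicate 1, 2, 3 or 4, mature replicate 1 or 2, or both libraries of replicate 1, 2 or 3. Hsp90b1 (GRP94), the HSP90 of the ER, had 1491, 1506, 957 and 978 CPM in LP and 3430, 5101, 1210 and 993 CPM in mature replicates 1 to 4. It showed the same order of mature libraries and was not called (log2 fold change -1.12, edgeR adjusted p = 0.109), but it was called without mature replicate 3 (log2 fold change -1.33, edgeR adjusted p = 0.0475) or without mature replicate 4.

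The DNAJ partners of BiP shared this order only in part. Dnajc3 (P58IPK) had 336, 326, 207 and 221 CPM in LP and 619, 736, 269 and 399 CPM in mature replicates 1 to 4 (log2 fold change -0.89, edgeR adjusted p = 0.0564). Dnajb9 (ERdj4) had 149, 163, 102 and 141 CPM in LP and 361, 355, 128 and 117 CPM in mature replicates 1 to 4 (log2 fold change -0.79, edgeR adjusted p = 0.146). Dnajb11 (ERdj3) went the other way, with 152, 171, 90.0 and 162 CPM in LP and 86.8, 142, 87.6 and 47.2 CPM in mature replicates 1 to 4 (log2 fold change 0.66, edgeR adjusted p = 0.145). Dnajb9 and Dnajb11 were not called. Dnajc3 was not called with all libraries, but it was called without mature replicate 3 (edgeR adjusted p = 0.0118) and by DESeq2 (adjusted p = 0.0163). Dnajc1 (ERdj1), a DNAJ protein of the ER membrane, was called at a small difference, from 59.5 to 87.5 CPM in LP and from 93.6 to 149 CPM in mature libraries (log2 fold change -0.59, edgeR adjusted p = 0.0447), and this call was lost in 10 of the 12 fits that left libraries out. With mature replicate 3 left out, 4 ER members were higher in mature cells, and without LP replicate 1, 2, 3 or 4, mature replicate 1 or 2, or both libraries of replicate 1 or 2, there were 0.

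The ER stress element, searched as CCAAT, any 9 bases and CCACG, or its reverse complement, stood in the promoters of 31 of the 18386 genes. Of the 11 ER members with an entry 3 held it, namely Hspa5, Hsp90b1 and Dnajc3, and no member of another class did. Each site is printed on the strand of its gene with the matched letters in capitals, for Hspa5 at chr2:34772020-34772048 (plus strand), for Hsp90b1 at chr10:86705633-86705661 (minus strand), the more distant of its 2 sites, and for Dnajc3 at chr14:118937822-118937850 (plus strand).
Hspa5: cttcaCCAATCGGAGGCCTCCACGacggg
Hsp90b1: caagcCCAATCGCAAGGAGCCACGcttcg
Dnajc3: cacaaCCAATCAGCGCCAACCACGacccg
These 3 genes had the lowest log2 fold changes among the ER members. Their mean in mature replicates 1 and 2 was 3.51-fold that in mature replicates 3 and 4 for Hspa5, 3.87-fold for Hsp90b1 and 2.03-fold for Dnajc3, and it was 2.92-fold for Dnajb9, which had no match.

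The inducible cytosolic set and the ER set thus had their highest values in different mature libraries. Summed over the 10 inducible genes, LP replicates 1 to 4 had 1033, 918, 2352 and 1339 CPM, and mature replicates 1 to 4 had 6739, 6487, 34070 and 11060 CPM. Summed over the 13 ER genes, LP replicates 1 to 4 had 7440, 7559, 4914 and 5672 CPM, and mature replicates 1 to 4 had 19970, 26740, 8390 and 5578 CPM. In the sums of inducible genes every mature library was above every LP library, and in those of ER genes mature replicate 4 was below LP replicates 1, 2 and 4. The highest mature library was replicate 1 or 2 in 10 of the 13 ER genes and in 0 of the 10 inducible genes. The ratio of mature replicates 1 and 2 to mature replicates 3 and 4 had a median of 1.33 in ER genes, 0.497 in inducible genes and 0.980 in all tested genes. With 2 libraries on each side, no test was made of this contrast.

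**Figure D3:**
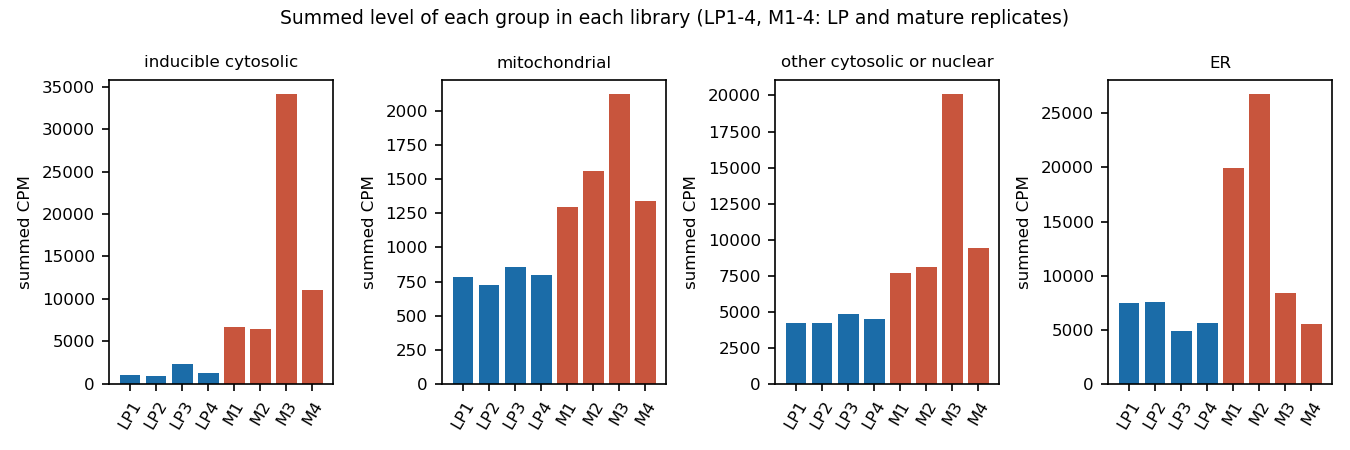
Summed CPM (vertical axis, separate scale in each panel, starting at 0) of the inducible cytosolic, mitochondrial, other cytosolic or nuclear and ER members in LP replicates 1 to 4 (LP1 to LP4, blue) and mature replicates 1 to 4 (M1 to M4, red), with 1 bar a library. The inducible sum peaks in mature replicate 3 at 34070 and the ER sum in mature replicate 2 at 26740.

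**Figure D4:**
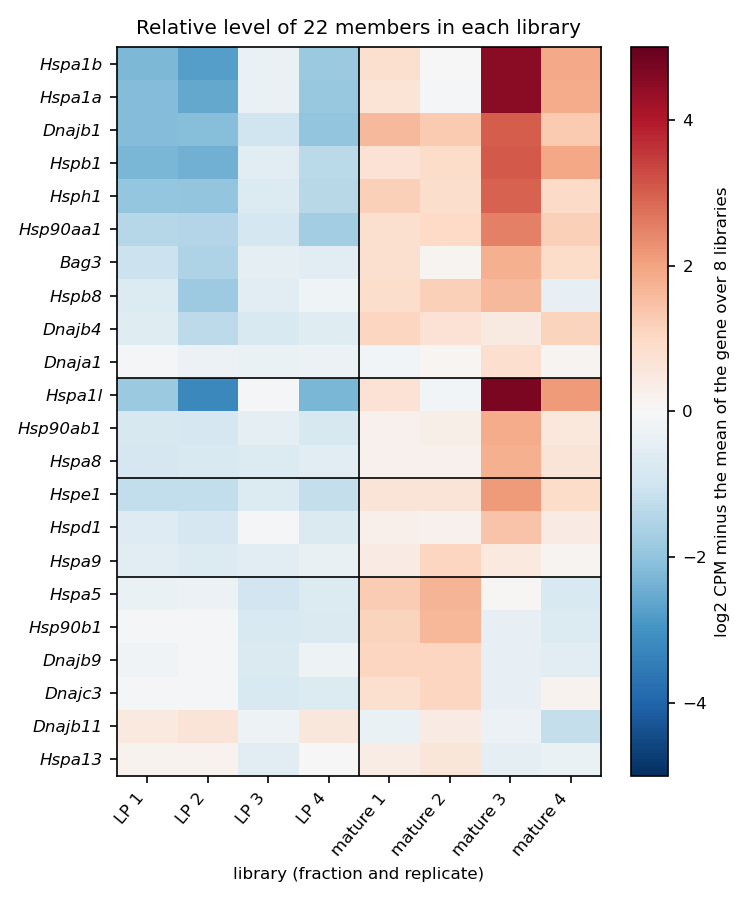
Log2 CPM of 22 members (rows) in the 8 libraries (columns), each minus the mean of the gene over the 8 libraries, with red above and blue below that mean and the scale ending at 5. From the top the blocks hold the inducible cytosolic genes, Hspa1l with the constitutive Hsp90ab1 and Hspa8, the mitochondrial genes and 6 ER genes. The first blocks are darkest in mature replicate 3, and Hspa5, Hsp90b1, Dnajb9 and Dnajc3 in mature replicates 1 and 2.

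Some other values differed between these libraries as well, and their part in the results was not tested. Of 14 tested genes known to respond within minutes to dissociation, 8 were called higher in mature cells, among them Fos, Jun and Atf3. The share over all tested genes was 13.8%. In LP 1 was called higher, Ier2 (log2 fold change 1.4, edgeR adjusted p = 0.0010). Egr1 was not called with all libraries (1.17), but it was called higher in LP without mature replicate 3 (2.15, edgeR adjusted p = 0.00024). The list summed to between 2101 and 2655 CPM in LP and to 5367, 5059, 5664 and 2945 CPM in mature replicates 1 to 4. Its highest mature sum was in replicate 3, as was that of the inducible genes, and its lowest was in replicate 4. The inducible sums were lowest in mature replicates 2 and 1, at 6487 and 6739 CPM. The ER folding partners that are not members, 12 genes of oxidative folding and the lectin chaperones among them, followed the order of the ER members, with summed levels of 11930, 15020, 5477 and 4863 CPM in mature replicates 1 to 4, and 1 of the 12 was called. The luminal markers Epcam, Krt8, Krt18 and Krt19 summed to 30720, 40820, 23000 and 22790 CPM in mature replicates 1 to 4. The keratins made up most of this sum, and Epcam went the other way, at 1595, 1779, 1870 and 2287 CPM. The 5 stromal markers summed to 135, 174, 24.7 and 21.7 CPM in the same libraries, most of it Dcn in mature replicates 1 and 2.

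The regulators of the response differed little. Hsf1, the factor that switches on heat-shock genes, had 29.2, 31.6, 29.9 and 24.0 CPM in LP and 32.8, 35.2, 39.1 and 42.2 CPM in mature replicates 1 to 4. Although every mature library was above every LP library, the difference was small and not called (log2 fold change -0.38, standard error 0.191, edgeR adjusted p = 0.172). Hsf2, a related factor, stood between 2.44 and 7.97 CPM in LP and between 2.71 and 8.67 CPM in mature libraries, which overlapped fully (log2 fold change -0.03, edgeR adjusted p = 0.978). HSF1 is known to be controlled at the protein level, which these counts do not measure.

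Per kilobase of exon, taken over all annotated transcripts of a gene, levels of different genes can be compared only roughly. The leading members in LP were then Hspa5 at 999.5 CPM per kb, Hsp90ab1 at 649.5, Hspb1 at 528, Hsp90b1 at 306 and Hspa8 at 264 CPM per kb. In mature cells the means were 5680 CPM per kb for Hspb1, 2658 for Hspa5, 1978 for Hsp90ab1, 884 for Hspa1a and 784 CPM per kb for Hspa8. These means hide a wide spread. Mature replicates 1 to 4 had 2479, 2796, 12490 and 5657 CPM of Hspb1 and 15040, 19960, 6345 and 3625 CPM of Hspa5. Of the 51-base stretches of Hspb1 49.9% recur elsewhere. The inducible Hsp90aa1 and Hspa1a stood well below the constitutive Hsp90ab1 and Hspa8 in LP, at 71.6 and 44.5 CPM per kb. In mature cells the mean of Hspa1a was above that of Hspa8 per kilobase but below it in CPM, at 2623 against 3371 CPM. The exon lengths used were 2967 and 4301 bases. Mature replicates 1, 2 and 4 had 584, 346 and 1309 CPM of Hspa1a against 2142, 2173 and 2886 CPM of Hspa8. Shared sequence, 66.1% of the 51-base stretches of Hspa1a and 39.1% of those of Hspa8, leaves both levels uncertain. All members together made up between 1.23% and 1.35% of the scaled counts in LP and between 2.74% and 6.47% in mature libraries.

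Members that were not called numbered 39 of the 65 tested. Of these 21 belonged to the other cytosolic or nuclear genes, among them the HSP110 relative Hspa4 (log2 fold change -0.01, standard error 0.142), Dnaja2 (-0.44), which serves constitutive HSP70, and Dnajc7 (-0.38), which binds both HSP70 and HSP90. Hspa4l, another HSP110 relative, had 136 CPM in mature replicate 3 against 62.0, 67.8 and 42.0 CPM in the other mature libraries and was not called (log2 fold change -0.59, edgeR adjusted p = 0.207, or -0.12 without mature replicate 3). Dnajb5, Dnajb7, Dnajb13, Dnajc5g, Dnajc22, Dnajc27 and Hspa12b did not pass the filter on low counts and were not tested. None of these 7 exceeded 8.66 CPM in any library.

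Of the 60 tested partners of these chaperones that are not themselves members, 9 were higher in mature cells (15.0%, against 13.8% of all tested genes) and 3 in LP (5.0%, against 10.9%). Without mature replicate 3 these were 10 and 4. Of 14 HSP90 cochaperones 2 were higher in mature cells, namely Stip1 (log2 fold change -0.92, edgeR adjusted p = 0.00273), which links HSP70 to HSP90, and Nudc (-0.63), and 0 were higher in LP, although Fkbp5 was called higher in LP without mature replicate 3 (log2 fold change 1.55, edgeR adjusted p = 0.0330). Of 10 HSP70 partners St13 (-0.90) was higher in mature cells, and the ubiquitin ligase gene Stub1 (0.46) and Hsbp1 (0.45), whose protein binds HSF1, were higher in LP. Stub1 was not called without mature replicate 3 (edgeR adjusted p = 0.0665). Of the 8 subunits of the cytosolic chaperonin TRiC 1 was called, Cct3, which was higher in LP (0.91). Of the 6 prefoldin subunits, which pass actin and tubulin to TRiC, 3 were higher in mature cells, and 2 without mature replicate 3. Of 10 mitochondrial partners 2 were higher in mature cells. Among genes that heat shock induces outside the chaperone families, Ubb, which encodes ubiquitin, was higher in mature cells (-1.68, edgeR adjusted p = 0.000742). Cryab, the small heat-shock protein alpha B-crystallin, had 123, 188, 1280 and 469 CPM in mature replicates 1 to 4 and between 138 and 271 CPM in LP and was not called (log2 fold change -1.43, edgeR adjusted p = 0.113). Without mature replicate 3 its log2 fold change was -0.43 (edgeR adjusted p = 0.491). The median log2 fold change was -0.17 for the HSP90 cochaperones, -0.02 for the HSP70 partners and -0.07 for TRiC, against -3.03 for the inducible members.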

How the data were processed

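Reads of 51 bases from 8 libraries were trimmed with cutadapt 4.2 and aligned to mm10 with Bowtie2 2.3.5.1, per the submitters' processing notes. The authors deposited raw counts per gene, listed by Entrez Gene ID and not normalized. The counting program and its use of strand are not given in the sources used here. Methods state fewer replicates than the 4 per group in the table, and all 8 libraries were used. Symbols came from RefSeq (24570 IDs matched), exon models from GENCODE for GRCm38.

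Counts were fitted in edgeR 4.0.16 (R 4.3.3) with TMM factors, filterByExpr by fraction (12816 genes kept), the quasi-likelihood F-test and Benjamini-Hochberg adjustment over all genes kept. The standard error is the absolute log2 fold change divided by the square root of F. The members, their classes and all lists were chosen with earlier results of these data known. Values per library are given for the inducible members, the regulators, the defining chaperones and called members with the largest changes (up to 12 in each direction). Hspb2, Hspa4l and the DNAJ partners of BiP were added after their values were seen. In 19 alternatives the scaling (RLE, upper quartile), test (DESeq2 1.42.0), filter, depth, replicate block or libraries were changed. On counts simulated with independent genes, the test recovered known changes with the right sign. That simulation had no library in which a set of genes moved together, so it does not cover mature replicate 3. Some genes of the lists are not reported here.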

Additional observations from a re-analysis of the deposited data

Results flagged for a closer look

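A library stood outside the others of its fraction in 19 of 68 groups of 4 values examined, when the gap to the nearest library, as a share of the range, exceeded the Dixon limit for 4 samples. About 3.4 would exceed it by chance, and the genes are not independent of each other. In mature replicate 3 the share was 0.895 for Dnajb1, 0.862 for Hsp90aa1, 0.878 for both Hspa1a and Hspa1b, 0.923 for Hsph1, 0.890 for Hsp90ab1, 0.897 for Hspd1, 0.888 for Hspe1 and 0.863 for Hspa1l. It was also 0.834 for the summed inducible genes and 0.861 for the summed other cytosolic or nuclear genes. In LP replicate 3 it was 0.898 for Dnajb1, 0.842 for Hspa1a, 0.860 for Hsp90ab1, 0.954 for Hspe1 and 0.961 for Hspb6.

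Away from replicate 3, mature replicate 2 stood out for Hsf2, with a share of 0.889 and 8.67 CPM against 2.71, 3.03 and 3.38 CPM. Mature replicate 1 stood out for Hspbap1, at 0.925 and 39.9 CPM, and for Hspa2, at 0.8645 and 42.2 CPM.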

How the results depend on the processing

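The cause of a changed count or direction was not tested. The inducible genes higher in mature cells numbered 8 or 9 in all 12 fits that left libraries out. Over those fits 15 to 28 members were called, 15 to 24 higher in mature cells and 0 to 4 in LP. Other cytosolic or nuclear members gave 5 to 8 and 0 to 4, ER members 0 to 4 and 0 to 1, mitochondrial members 2 to 3 and 0 to 2, and all tested genes 1615 to 3414 calls, 879 to 1746 higher in mature cells and 736 to 1668 in LP. ER members higher in mature cells were 0 with upper-quartile factors and 0 with no filter. A log2 fold change beyond 1 left 2 members higher in LP. Hsf2, which was never called, turned positive with upper-quartile factors (0.0091), no filter (0.047), a minimum of 10 counts per library (0.012) and the replicate block (0.0046), and ran from -0.65 to 0.71 without single libraries or replicates. Hspa5 was not called with upper-quartile factors, no filter or the replicate block (edgeR adjusted p = 0.0510, 0.0570 and 0.0570).

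Same-numbered libraries deviated together weakly, with correlations across genes of 0.125, 0.0658, 0.161 and 0.0823 for replicates 1 to 4. Libraries of unlike number gave between -0.169 and 0.0804. The main fit was left unpaired because the labels do not say what the number stands for, and these correlations do not decide it. With the replicate block, 22 members and 3027 of all 12816 genes were called, 21 of these members also without it, and Dnajc3 in addition (edgeR adjusted p = 0.0145). Members higher in LP were then 2, ER members higher in mature cells 1 and mitochondrial members higher in LP 0. As a hint from the data and not the design, 7 of the 8 libraries correlated best with their own number in the other fraction. The exception was mature replicate 2, which correlated best with LP replicate 1 (0.0804). DESeq2 called 28 members, including the same 26. The 7 members below the filter on low counts were not tested, and no difference is given for them.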
